A study of Homo sapiens with 12 samples.

Results

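The genes described here are those named ZSCAN, ZKSCAN or ZBTB, which form 3 families of zinc finger transcription factors. They were found as rows whose symbol is one of these names followed by a number, where at least 3 of 12 libraries had a deposited normalized count of 10 or above. This gave 64 genes of the 25369 in the table, made up of 41 ZBTB, 17 ZSCAN and 6 ZKSCAN genes. All 12 libraries came from HEK293T, a human line derived from embryonic kidney, which one protocol calls HEK293. The cells had been transfected to express either unfused Halo tag (Control) or residues 196 to 346 of TNIP2 joined to it (TNIP2). For each construct RNA was sequenced from the whole cell extract (Input) and from material purified through the tag (Pulldown), with 3 libraries in each of the 4 groups. Untransfected cells and full-length TNIP2 are not among these groups, so the Control is a transfected, tagged control and the bait is a fragment. The labels do not state whether the replicates are separate transfections, and the spread that the p-values measure may be technical. One column prefix carries no construct name and was assigned to TNIP2 because the other prefix begins with the initial of Control and the series has no other construct.

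Proteins of all 3 families bind DNA through C2H2 zinc fingers, each of which folds around a zinc ion. The SCAN domain of ZSCAN and ZKSCAN proteins pairs them with other SCAN proteins, and many ZKSCAN proteins also carry a KRAB domain, which recruits the corepressor TRIM28. The BTB domain of ZBTB proteins forms dimers and, in several of them, binds corepressors such as NCOR1 or BCOR. The data below concern the RNAs of these genes and not their proteins: a value in a Pulldown library is RNA that was copurified with the tagged protein. An antisense or neighbouring transcript can share the reads of a gene where the 2 overlap, and 32 of the 64 genes overlap another annotated gene, 21 of them one that is in the count table.

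The names were checked against the annotation. ZBTB8OS is no zinc finger gene: it encodes archease, a cofactor of tRNA ligation, and carries its name because it lies opposite ZBTB8A. ZSCAN12P1 is a pseudogene, and reads of its parent ZSCAN12 could be counted for it or the reverse. Another 6 genes with matching names stayed below the level required: ZSCAN10 and ZSCAN4, which are known from pluripotent cells and early embryos, ZSCAN1, ZSCAN5B, ZBTB32 and ZKSCAN7. Just outside the limit, ZKSCAN7 was listed at 10 in 2 libraries and at 0 to 9 in the others, and ZSCAN10 reached 10 in 1 library. Just inside it, the lowest value of any of the 64 genes was 11, for ZBTB20. All 64 were at 10 or more in all 12 libraries, so none was kept through 1 group alone.

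Depth, as reads recovered from the files, ranged over 13791731 to 20794997 for Control Input and 3591174 to 6404575 for Control Pulldown. It ranged over 8898633 to 16763822 for TNIP2 Input and 10312783 to 29535635 for TNIP2 Pulldown, and 1 read was worth 0.510 to 2.86 normalized counts. TNIP2 itself was at 272 to 304 normalized counts in Input and 309 to 1472 in Pulldown with the tag alone, against 13318 to 46568 and 51905 to 193013 with the fragment, which sets the constructs apart in the direction of the labels. Of 12 genes chosen as markers of the HEK293 line, 11 averaged 10 or more in Control Input, with PAX2 at 3.0. Their summed level was 8049 to 9831 in the libraries of the other groups and 21986 to 30678 in TNIP2 Pulldown. The markers did not move together. MYC averaged 950 in TNIP2 Input and 7230 in TNIP2 Pulldown, and INA 258 and 79. NEFM, KRT8 and KRT18 were also lower on average in TNIP2 Pulldown, and the other markers of the line were higher. Of 17 markers of blood, fibroblast, endothelial, liver and germ cells, 4 to 6 averaged 10 or more in a group, HBB and CD3E were at 0 in all 4 groups, and the sums were 125 to 267. The part of these differences in the results below was not tested. In these bulk libraries, fewer cells that express a gene and less RNA per cell cannot be told apart.

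Levels per transcript length, as FPKM in Control Input (mean ± SD, n = 3), spanned a wide range. ZBTB8OS was highest, at 53.4 ± 4.12 FPKM. Among the zinc finger genes ZBTB18, a repressor known from developing neurons, led with 23.7 ± 1.84 FPKM, followed by ZBTB33 (Kaiso, a reader of methylated DNA) with 22.2 ± 2.11 FPKM. ZBTB48, which binds telomere repeats, had 18.2 ± 2.37 FPKM, ZBTB11 had 17.4 ± 1.55 FPKM and ZBTB10 had 15.7 ± 0.94 FPKM. ZBTB18 and ZBTB33 differed by less than either SD, as did ZBTB48 and ZBTB11; the other neighbours in this order were farther apart than their SDs. The lowest were ZBTB7C at 0.65 FPKM, ZSCAN12P1 at 0.63 FPKM and ZBTB20 at 0.42 FPKM. The median over the 64 genes was 5.77 FPKM, against 7.79 FPKM over all genes tested.

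**Figure D1:**
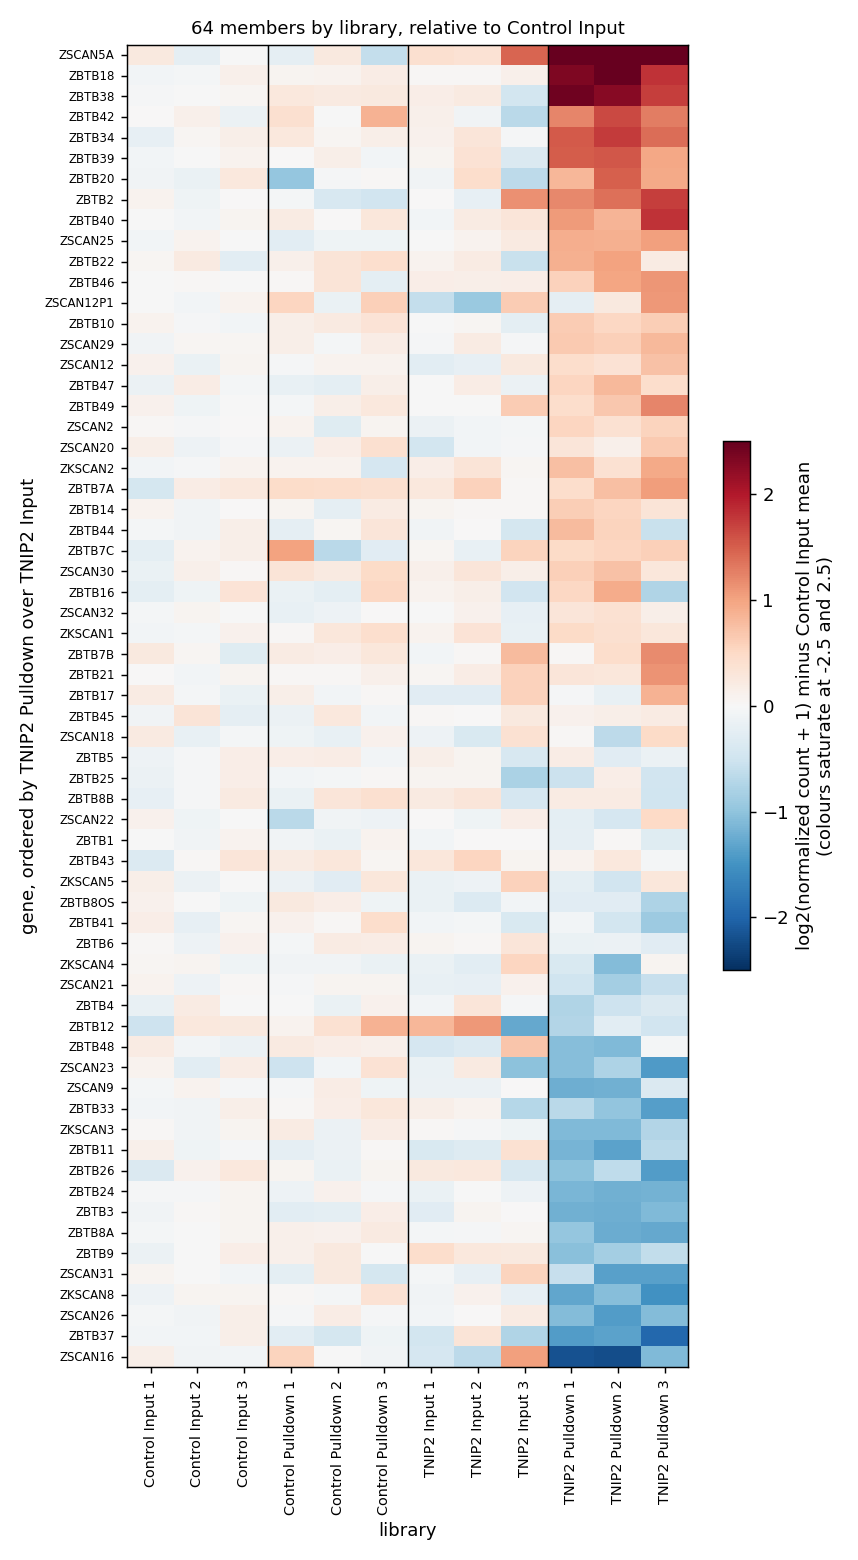
Log2(normalized count + 1) of the 64 genes in each of the 12 libraries, minus the gene's mean in Control Input; genes are ordered by their change in TNIP2 Pulldown over TNIP2 Input and colours saturate at 2.5 in either direction. The 3 TNIP2 Pulldown columns stand apart, with ZSCAN5A at the top and ZSCAN16 at the bottom, while the Control Pulldown columns stay close to Control Input.

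The first question was which of these RNAs were enriched or depleted in material purified with the TNIP2 fragment, relative to its own extract. ZSCAN5A, ZBTB18 and ZBTB38 rose by more than 4-fold in TNIP2 Pulldown. The largest decreases, each of more than 2-fold, were those of ZSCAN16, ZBTB37, ZSCAN26 and ZKSCAN8. In all, 21 genes rose, 17 fell and 26 did not pass the test (limma, adjusted p under 0.05, over 14627 genes). Among all genes tested 58.1% passed, 29.8% higher and 28.3% lower, so the share of these families that passed, 59.4%, lay near the background. The median change was 0.13 on the log2 scale, against 0.01 over all genes. By family, 14 ZBTB genes rose and 10 fell of 41, 6 ZSCAN genes rose and 5 fell of 17, and 1 ZKSCAN gene rose and 2 fell of 6. When libraries were centred on ribosomal protein genes, which moved the median of all genes by -0.47, the split became 6 genes higher and 25 lower, where 16.8% of all genes were higher and 41.2% lower. Directions below are therefore relative to the bulk of genes. TNIP2 Pulldown libraries lay wholly above TNIP2 Input for 20 genes and wholly below for 16, against 29.4% and 28.1% of all genes.

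ZSCAN5A, a SCAN zinc finger gene with close copies in the genome, showed the widest difference. With the tag alone its normalized counts were 24, 17 and 20 in the Input libraries and 17, 24 and 13 in the Pulldown libraries. With the TNIP2 fragment they were 27, 26 and 57 in Input and 185, 249 and 398 in Pulldown. The TNIP2 Pulldown libraries lay above the other 9, and replicate 3 was the highest in both TNIP2 groups. The change over TNIP2 Input was 2.91 ± 0.35 (log2, SE; limma adjusted p = 7.0e-06), or 7.51-fold. The signal rested on 194, 487 and 325 reads in TNIP2 Pulldown and on 5 to 15 reads in Control Pulldown, so its fold against the latter is the less precise. Its copy ZSCAN5B was listed at 4 or less in every library, and reads of the copies may not be separated by the counting.

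Among the ZBTB genes, ZBTB18 had both a high level and a large increase. With the tag alone it stood at 1157, 1170 and 1327 normalized counts in Input and 1269, 1298 and 1384 in Pulldown. With the TNIP2 fragment it stood at 1234, 1237 and 1331 in Input and 6140, 8879 and 4247 in Pulldown. The first 9 libraries lay close together, and each TNIP2 Pulldown library was above all of them. The change was 2.28 ± 0.20 (log2, SE; limma adjusted p = 3.8e-07), or 4.85-fold, and the mean level in TNIP2 Pulldown was 125 ± 45.3 FPKM (n = 3).

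The 3 ZBTB genes whose proteins read methylated CpG did not move together. ZBTB38 rose: it was at 396, 410 and 258 normalized counts in TNIP2 Input against 1908, 1705 and 1174 in TNIP2 Pulldown, with 344 to 424 in the Control libraries. Its change was 2.17 ± 0.20 (log2, SE; limma adjusted p = 5.6e-07). ZBTB33 fell, from 1473, 1418 and 811 in TNIP2 Input to 832, 672 and 515 in TNIP2 Pulldown, where replicate 3 of TNIP2 Input lay below replicate 1 of TNIP2 Pulldown, so that the groups overlapped. The change of ZBTB33 was -0.85 ± 0.22 (log2, SE; limma adjusted p = 0.0043). ZBTB4 fell by less, from 283, 363 and 289 to 174, 206 and 229, a change of -0.62 ± 0.18 (log2, SE; limma adjusted p = 0.0076) with no overlap.

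Another 5 ZBTB genes led the increases. ZBTB42, known from skeletal muscle, went from 69, 59 and 39 normalized counts in TNIP2 Input to 148, 199 and 153 in TNIP2 Pulldown, a change of 1.59 (log2). ZBTB34 went from 524, 603 and 476 to 1413, 1634 and 1276, a change of 1.43. ZBTB39 went from 432, 529 and 320 to 1169, 1199 and 806, a change of 1.31. In each of these the lowest Pulldown library was above the highest Input library. ZBTB2 was at 502, 432 and 1102 in TNIP2 Input against 1141, 1292 and 1646 in TNIP2 Pulldown, a change of 1.11. Replicate 3 of TNIP2 Input was more than 2 times either other library of its group and lay just below the lowest Pulldown library. ZBTB20, which acts in liver and hippocampus development, was low throughout, at 21, 31 and 14 in TNIP2 Input against 41, 65 and 44 in TNIP2 Pulldown. Its change of 1.19 (limma adjusted p = 0.011) missed the threshold without TNIP2 Pulldown replicate 2 (0.99, adjusted p = 0.054). The limma adjusted p of the other 4 genes lay between 2.8e-06 and 0.0029. With ribosomal protein centring ZBTB20 (0.72) and ZBTB2 (0.65) were no longer called.

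The decreases were smaller in size than the largest increases. ZSCAN16 was at 137, 117 and 378 normalized counts in TNIP2 Input against 40, 39 and 86 in TNIP2 Pulldown. Its change was -1.81 ± 0.39 (log2, SE; limma adjusted p = 9.6e-04), or 3.51-fold lower, and the 2 groups did not overlap although replicate 3 was the highest in each. The antisense gene ZSCAN16-AS1, which overlaps it, also fell, by 0.88 on the log2 scale (limma adjusted p = 0.0031). ZBTB37 was at 112, 193 and 92 in TNIP2 Input against 58, 61 and 39 in TNIP2 Pulldown, a change of -1.27, while GAS5, which overlaps it and is the host of small nucleolar RNAs, rose by 0.91. The counting's strand setting is not given in the sources used here, so reads of such pairs cannot be assigned with certainty.

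Another 5 genes of this set had tight replicates. ZBTB24, the gene altered in a form of the immunodeficiency, centromeric instability and facial anomalies syndrome, was at 537, 599 and 550 in TNIP2 Input against 270, 262 and 265 in TNIP2 Pulldown, a change of -1.08 ± 0.14 (log2, SE; limma adjusted p = 9.6e-06). ZBTB8A was at 506, 513 and 543 against 267, 221 and 216, a change of -1.15. ZBTB9 was at 191, 169 and 165 against 67, 77 and 91, a change of -1.16. Neither of these overlapped between the groups. ZBTB3 was at 127, 162 and 156 against 67, 66 and 72, a change of -1.10. ZSCAN26 was at 340, 360 and 414 against 167, 135 and 168, a change of -1.24. For these 4 genes the limma adjusted p lay between 7.2e-06 and 1.3e-04.

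**Figure D2:**
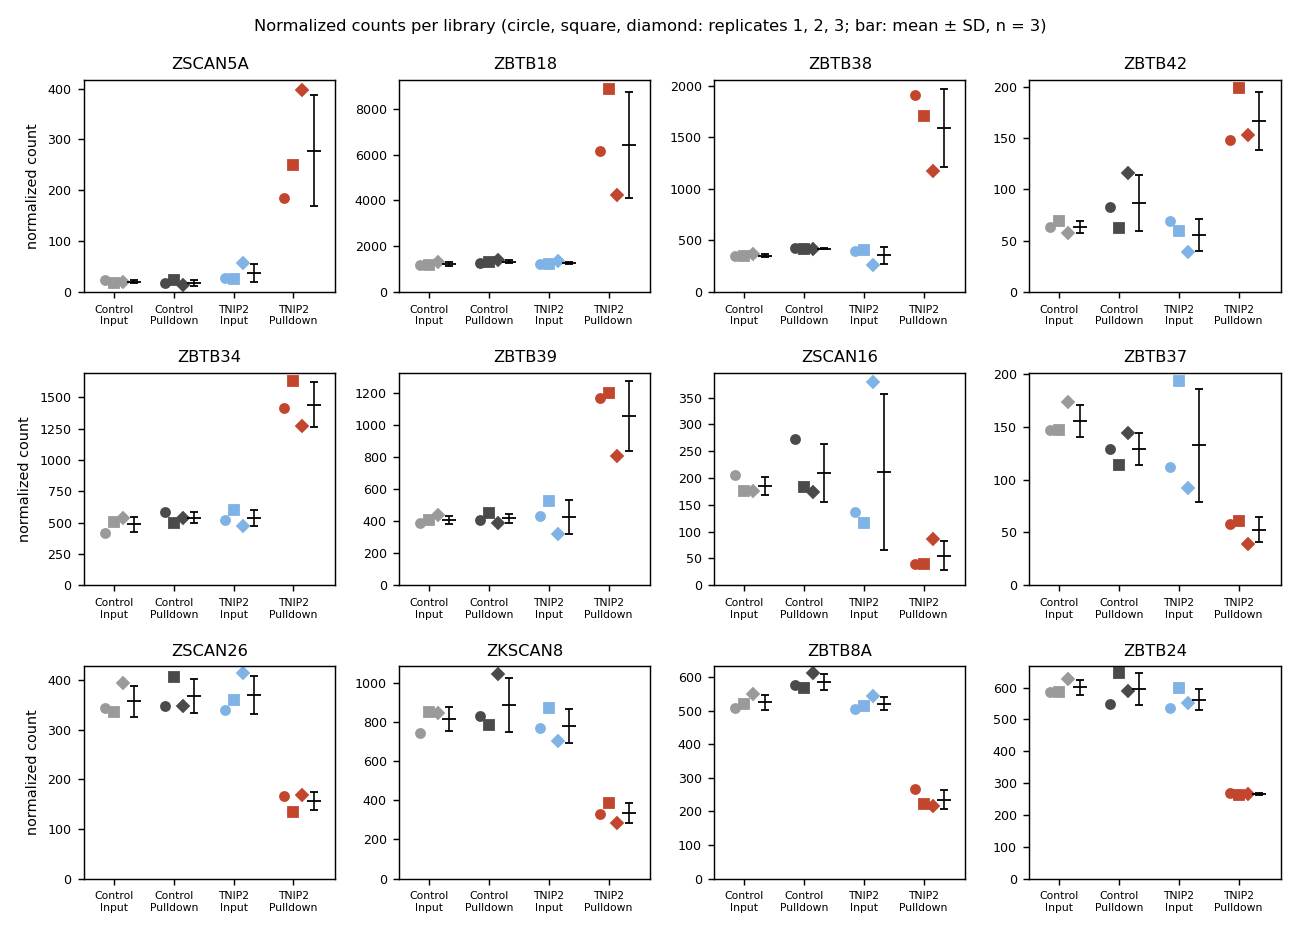
Normalized counts of 12 genes in each library of the 4 groups (circle, square and diamond mark replicates 1, 2 and 3; bars are mean ± SD, n = 3; each panel has its own axis from 0). For ZSCAN5A, ZBTB18, ZBTB38, ZBTB42, ZBTB34 and ZBTB39 the TNIP2 Pulldown libraries lie above all others, and for the other 6 genes below all others.

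Smaller changes passed as well. ZBTB40 was at 477, 577 and 624 normalized counts in TNIP2 Input against 1058, 903 and 1753 in TNIP2 Pulldown, a change of 1.09 with no overlap that was 0.63 and not called under ribosomal protein centring. ZBTB10 was at 1812, 1881 and 1544 against 2837, 2590 and 2782, a change of 0.65 that was 0.13 under quantile normalization and 0.19 under ribosomal protein centring, both not called. ZSCAN2 was at 252, 266 and 269 against 403, 360 and 408, a change of 0.57 that was 0.10 and not called under the same centring. ZBTB14 was at 219, 213 and 212 against 320, 302 and 261, a change of 0.45 that turned to -0.02 under that centring and was not called without replicate 1 or replicate 2 of either TNIP2 group. Among the genes that fell, ZBTB11 was at 778, 804 and 1312 against 451, 397 and 629, a change of -0.95 (limma adjusted p = 0.0013), with replicate 3 the highest in both groups. ZSCAN21 was at 260, 257 and 320 against 210, 163 and 197, a change of -0.55 (limma adjusted p = 0.0089) that was -0.39 and not called under quantile normalization; ZNF3, which overlaps it, fell by 1.17.

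Some well-studied genes of these families passed in neither direction. ZBTB17 (MIZ-1), a partner of MYC, was at 348, 347 and 635 in TNIP2 Input against 414, 370 and 773 in TNIP2 Pulldown, a difference of 0.21 (log2; limma adjusted p = 0.53). ZBTB7A, a repressor of fetal globin genes, was at 69, 87 and 59 against 78, 98 and 120, a difference of 0.45 (adjusted p = 0.13). Both pairs of groups overlapped. ZBTB16 (PLZF), known from its fusion to a retinoic acid receptor in leukaemia, was low, at 24, 25 and 16 against 33, 44 and 13, a difference of 0.32 (adjusted p = 0.52). ZBTB1, needed for lymphocyte development, was at 550, 583 and 585 against 494, 593 and 472, a difference of -0.15 (adjusted p = 0.4). ZKSCAN1 had a difference of 0.31 (adjusted p = 0.11) and ZBTB5 one of -0.03 (adjusted p = 0.92). ZBTB8OS had a difference of -0.26 (adjusted p = 0.22) and ZSCAN12P1 one of 0.66 (adjusted p = 0.18). ZBTB48 was called lower at -0.71 (adjusted p = 0.049), its groups overlapped, and 9 of the 12 fits that left out 1 library did not call it, with -0.36 without TNIP2 Input replicate 3. Within same-numbered pairs its ratio of Pulldown to Input was 0.643, 0.584 and 0.600, and the paired fit of the 6 TNIP2 libraries called it (limma adjusted p = 0.0027).

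The second question was whether the 2 purified fractions differ, which compares RNA held by the TNIP2 fragment with RNA held by the tag and resin. This comparison shares the TNIP2 Pulldown libraries with the first, so the values are given side by side and not as a second test. In TNIP2 Pulldown over Control Pulldown 20 genes rose, 20 fell and 24 did not pass, and 59.4% of all genes passed, 30.6% higher and 28.7% lower. By family, 14 ZBTB genes rose and 12 fell, 5 ZSCAN genes rose and 6 fell, and 1 ZKSCAN gene rose and 2 fell. The median was 0.14 against 0.03 over all genes, and the range was -1.98 to 3.84. With ribosomal protein centring, which moved the median of all genes by -0.35, 8 genes were higher and 25 lower, where 2931 of all 14627 genes were higher and 5428 lower. Libraries lay wholly above for 21 genes and wholly below for 22, against 31.5% and 29.5% of all genes.

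ZSCAN5A again had the largest value, 3.84 ± 0.35 (log2, SE; limma adjusted p = 4.6e-07), with means of 277 ± 109 and 18.0 ± 5.6 normalized counts (SD, n = 3). ZBTB18 was 2.22 higher, with means of 6422 ± 2329 and 1317 ± 59.8. ZBTB38 was 1.90 higher, with means of 1596 ± 379 and 418 ± 6.0. ZBTB2, whose Input libraries were uneven, was at 478, 375 and 356 in Control Pulldown, and its change against that group was 1.75 (limma adjusted p = 7.0e-05). ZBTB42, at 83, 62 and 116 in Control Pulldown, was 0.96 higher (limma adjusted p = 0.0057), against 1.59 over TNIP2 Input. Under other settings this 0.96 was as low as 0.62, and its limma adjusted p was as high as 0.068. ZBTB20 and ZBTB34 were each 1.41 higher, ZBTB39 was 1.32 higher and ZSCAN25 was 1.09 higher. For ZSCAN25 the libraries were tight, at 261, 290 and 293 in Control Pulldown and 586, 579 and 636 in TNIP2 Pulldown. At the other end ZSCAN16 was at 272, 183 and 174 in Control Pulldown, and its change was -1.98 ± 0.39 (log2, SE; limma adjusted p = 4.5e-04). ZKSCAN8 was at 833, 787 and 1046 in Control Pulldown and 331, 386 and 286 in TNIP2 Pulldown, a change of -1.41. ZBTB33 was at 1369, 1498 and 1631 against 832, 672 and 515, a change of -1.18 (limma adjusted p = 3.5e-04), here with no overlap. ZKSCAN3, a repressor of autophagy genes, was at 221, 173 and 217 against 89, 88 and 115, a change of -1.06. ZBTB8A, ZBTB37, ZSCAN26 and ZBTB24 completed the lowest 8, with changes of -1.32, -1.30, -1.23 and -1.15. ZBTB8OS, not called in the first comparison, was at 513, 490 and 402 against 358, 354 and 252, a change of -0.55 (limma adjusted p = 0.013) that missed the threshold without Control Pulldown replicate 1. ZBTB21 was called higher at 0.51 (adjusted p = 0.047), a value that was 0.23 without TNIP2 Pulldown replicate 3 and that 9 of the 12 fits that left out 1 library did not call.

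The other comparisons concern the tag alone and the extracts. In Control Pulldown against Control Input none of the 64 genes passed (limma), 1 had an unadjusted p under 0.05 (2.34% of all genes), and the voom fit on recovered reads also called none. Among all genes 0.137% passed. Libraries lay wholly above for 5 genes and wholly below for 2, against 5.83% and 7.15% of all genes. The changes spanned -0.32 to 0.45. The smallest p belonged to ZSCAN30, at 323, 393 and 370 in Control Input and 450, 423 and 503 in Control Pulldown, a difference of 0.34 ± 0.16 (log2, SE; limma adjusted p = 1). ZBTB7A differed by 0.44 and ZBTB10 by 0.24, both with an adjusted p of 1. The low depth of Control Pulldown limits what could be detected in it, as does a spread estimated from all 4 groups together. Fitted on only the 2 groups compared, 1019 of all genes had an unadjusted p under 0.05 (limma), against 342. None of the 64 genes was called in that fit either. In TNIP2 Input against Control Input none passed (limma), none had an unadjusted p under 0.05 (0.711% of all genes), the voom fit called none, and 0.00684% of all genes passed. Libraries lay wholly above for 4 genes and wholly below for 1, against 3.62% and 5.32% of all genes. The changes spanned -0.32 to 0.74, and the largest belonged to ZSCAN5A, 0.74 ± 0.35 (log2, SE; limma adjusted p = 1), whose highest Input library was TNIP2 replicate 3. ZBTB9 differed by 0.32 and ZBTB43 by 0.30. Without both TNIP2 libraries numbered 3, 1391 of all genes had an unadjusted p under 0.05 in this comparison (limma), against 104. None of the 64 genes was called in it.

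The difference of enrichments tests whether Pulldown over Input differs between the 2 constructs (TNIP2 fragment minus tag alone). Here 13 genes were higher, 15 lower and 36 did not pass, where 42.8% of all genes passed, 22.6% higher and 20.2% lower. By family, 9 ZBTB genes were higher and 8 lower, 4 ZSCAN genes were higher and 5 lower, and no ZKSCAN gene was higher and 2 were lower. With ribosomal protein centring 5 genes were higher and 25 lower, where 10.0% of all genes were higher and 34.6% lower.

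**Figure D3:**
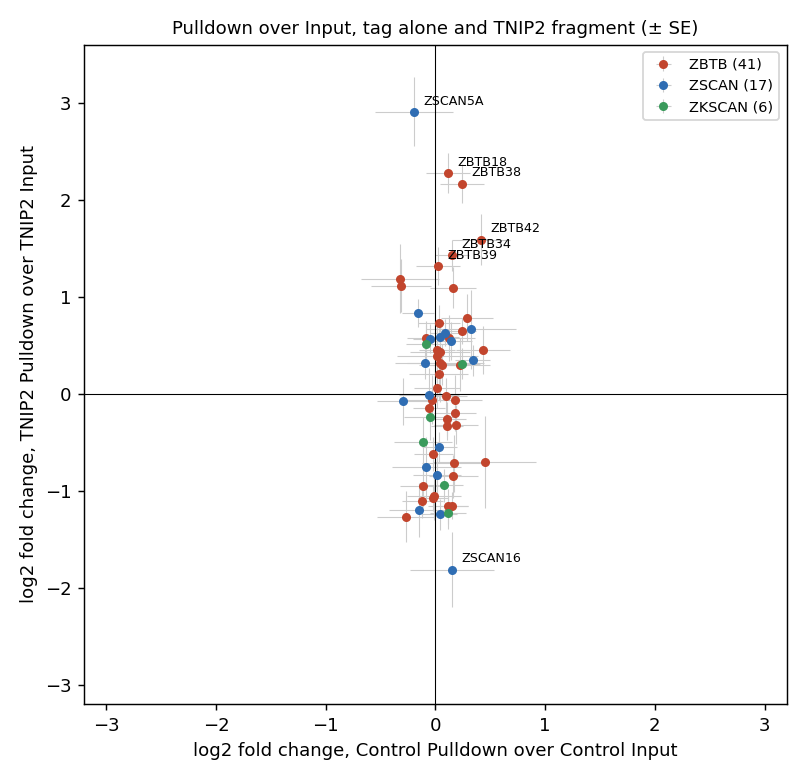
Log2 change of Pulldown over Input for the tag alone (horizontal axis) and for the TNIP2 fragment (vertical axis), with SE bars, for the 41 ZBTB, 17 ZSCAN and 6 ZKSCAN genes; both axes have the same scale. Values spread from -1.81 to 2.91 on the vertical axis and only from -0.32 to 0.45 on the horizontal axis.

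The decreases included several neighbours on chromosome 6. In the RefSeq annotation (GRCh38.p14) 10 of the SCAN genes follow each other there with less than 500000 bases between neighbours: ZSCAN12P1, ZSCAN16, ZKSCAN8, ZSCAN9, ZKSCAN4, ZSCAN26, ZSCAN31, ZKSCAN3, ZSCAN12 and ZSCAN23. They were grouped after their values were seen, so they are described and not tested as a group. In TNIP2 Pulldown over TNIP2 Input 6 fell, 1 rose and 3 did not pass, with a median of -0.89. In TNIP2 Pulldown over Control Pulldown 7 fell and 1 rose, with a median of -0.97. Among all genes 28.3% fell and 29.8% rose in the first of these, and 28.7% fell and 30.6% rose in the second. The medians under ribosomal protein centring were -1.36 and -1.32, against -0.46 and -0.32 over all genes. Besides ZSCAN16 and ZSCAN26, ZKSCAN8 fell, from 770, 872 and 701 normalized counts in TNIP2 Input to 331, 386 and 286 in TNIP2 Pulldown (-1.23). ZSCAN31 fell from 83, 74 and 127 to 57, 33 and 33 (-1.20), ZKSCAN3 from 196, 188 and 177 to 89, 88 and 115 (-0.94), and ZSCAN9 from 190, 191 and 211 to 89, 91 and 163 (-0.84). These 4 had limma adjusted p values between 1.8e-05 and 0.0038, and replicate 3 of ZSCAN9 stood well above the other Pulldown libraries. ZSCAN31 and ZKSCAN3 overlap each other in the annotation, so reads may be shared between them. Only ZSCAN12 was called higher, at 635, 666 and 904 in TNIP2 Input against 1042, 984 and 1272 in TNIP2 Pulldown (0.59, limma adjusted p = 0.0069). Under quantile normalization and under ribosomal protein centring none of the 10 genes was called higher in either comparison, so this call was lost. The pseudogene ZSCAN12P1 (0.66), ZKSCAN4 (-0.50) and ZSCAN23 (-0.76) did not pass over TNIP2 Input. ZSCAN23 passed as lower over Control Pulldown (limma adjusted p = 0.014). Of the genes that lie between them and were both tested and listed under their current symbol, ZSCAN16-AS1 fell, while TOB2P1 (0.02) and PGBD1 (0.09) did not pass. The 13 SCAN genes elsewhere had 6 that rose and 1 that fell over TNIP2 Input, where 29.8% of all genes rose and 28.3% fell. Their median of 0.34 turned to -0.12 under ribosomal protein centring, where that of all genes was -0.46.

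**Figure D4:**
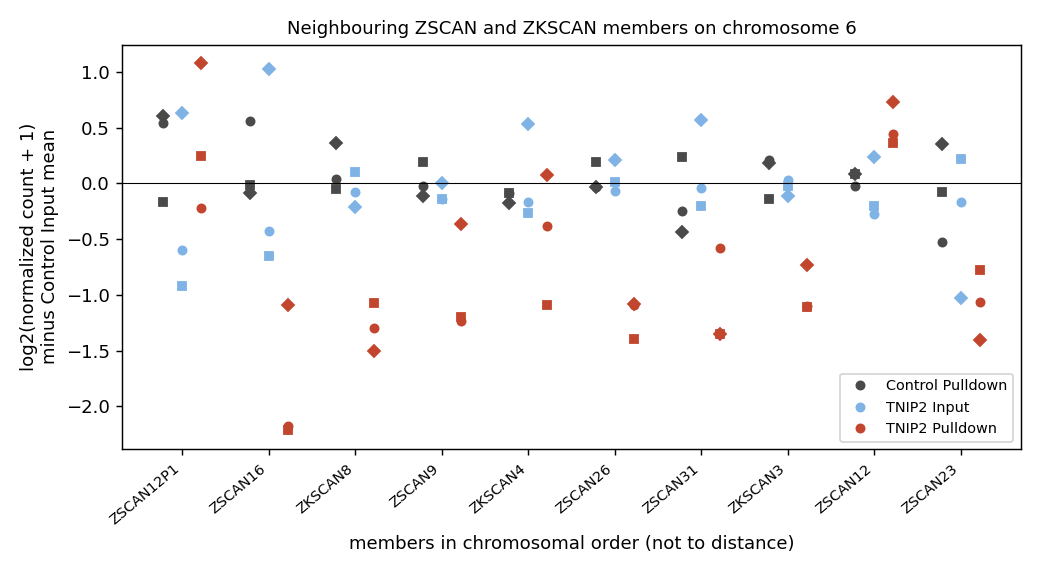
Log2(normalized count + 1) minus the Control Input mean for the 10 SCAN genes on chromosome 6, in chromosomal order and not to distance; circle, square and diamond mark replicates 1, 2 and 3. All TNIP2 Pulldown libraries lie below all others for 6 genes (ZSCAN16, ZKSCAN8, ZSCAN9, ZSCAN26, ZSCAN31 and ZKSCAN3) and above all others for ZSCAN12.

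Transcript length was compared with the change, as a description without a test. Exon length recovered from the FPKM values had a median of 5268 bases in the 21 genes that rose in TNIP2 Pulldown over TNIP2 Input, 3420 in the 17 that fell and 4286 in the 26 that did not pass. Across the 64 genes Spearman's rho between length and change was 0.24, and across all 14627 genes it was 0.22, so the relation was of like size in both. These points share the same 6 libraries. The families have longer transcripts than the rest, with a median of 4464 bases against 3213.

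Related genes were taken from lists chosen with earlier results of these data known. Over TNIP2 Input 29.8% of all genes rose and 28.3% fell, with a median of 0.01. With ribosomal protein centring 16.8% of all genes were higher and 41.2% lower, with a median of -0.46. Of 24 other SCAN domain genes tested, 8 rose and 5 fell in TNIP2 Pulldown over TNIP2 Input, with a median of 0.04, and SCAND1, which consists of little more than a SCAN domain, had the lowest value, -2.65. With ribosomal protein centring 3 of this list were higher and 11 lower, with a median of -0.42. Of 8 other genes with BTB domains and zinc fingers 5 rose and 1 fell, with a median of 0.58, and with that centring 2 were higher and 3 lower, with a median of 0.11. BCL6, the germinal centre repressor, rose by 1.95 and HIC1 by 1.97, whereas BCL6B fell by 1.32. Of 24 corepressors and partners 16 rose and 3 fell, with a median of 0.79. MYC, the partner of ZBTB17, rose by 2.88, BCOR by 2.85, RCOR1 by 1.71 and NCOR1 by 1.42, whereas CBX5 fell by 1.18, CUL3, the ubiquitin ligase scaffold bound by many BTB proteins, by 0.91, and HDAC5 by 0.53. CTNND1 (p120 catenin), the partner of ZBTB33, differed by -0.82 and did not pass (limma adjusted p = 0.11). With ribosomal protein centring the split of this list was 11 higher and 5 lower, with a median of 0.32. In TNIP2 Pulldown over Control Pulldown it was 16 higher and 3 lower, with a median of 1.09, and 12 higher and 4 lower with that centring.

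The TNIP2 libraries numbered 3 stood apart from the others. Replicate 3 of TNIP2 Input lay above all other 5 Input libraries for 23 of the 64 genes and below all of them for 21, against 32.4% and 32.7% of all genes. Replicate 3 of TNIP2 Pulldown lay above replicates 1 and 2 for 31 genes and below both for 24, against 36.4% and 44.4% of all genes. ZBTB2 (1102 against 432 to 529 in the other Input libraries) and ZSCAN16 (378 against 117 to 205) were high in that Input library and ZBTB33 (811 against 1257 to 1487) was low. Without both libraries numbered 3, 22 genes were higher and 20 lower in TNIP2 Pulldown over TNIP2 Input, 23 and 22 in TNIP2 Pulldown over Control Pulldown, and 15 and 17 in the difference of enrichments. The shares of all genes in this fit were 32.9% and 31.0%, 35.2% and 32.8%, and 29.0% and 26.4%. Taken within same-numbered pairs, the ratio of TNIP2 Pulldown to TNIP2 Input was 6.85, 9.58 and 6.98 for ZSCAN5A, 4.98, 7.18 and 3.19 for ZBTB18 and 4.82, 4.16 and 4.55 for ZBTB38. For ZBTB34 it was 2.70, 2.71 and 2.68, and for ZSCAN16 it was 0.292, 0.333 and 0.228, so all 3 pairs moved the same way in each.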

How the data were processed

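RNA-seq was analysed in 12 libraries, after ribosomal RNA removal and library preparation per the labels' protocols. The authors deposited normalized counts, treated here as a score because these whole numbers are already scaled between libraries, and FPKM values. Because of that scaling, limma on log values replaced the planned count test. Per the submitters' processing notes the tools were TopHat2 2.0.14 and DESeq2 1.6.3, with hg19 as build; what counted the reads, over which gene models and with which strand option, is not given in the sources used here. Reads per gene and exon length were recovered from the steps of the deposited FPKM values (whole within 0.1 reads), and depth was taken from them.

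The scale was log2(normalized count + 1), on which changes of low genes are understated. A mean for each group was fitted to all 12 libraries (limma 3.58.1 in R 4.3.3; lmFit, eBayes with trend, 8 residual degrees of freedom), over 14627 genes with 10 or more in at least 3 libraries. P-values are two-sided and adjusted by Benjamini-Hochberg, with a threshold of 0.05. The recovery of reads and the fit were tested on simulated data. All 12 library factors were recovered within 1 percent. The fit called 62% of 100 genes changed by 1 on the log2 scale and 92% of 100 changed by 2. The simulation gave all groups the same spread and changed few genes, whereas 58.1% passed in TNIP2 Pulldown over TNIP2 Input. It therefore does not show how reliable the calls are in these data. The members and lists were chosen with earlier results of these data known. Genes were named by rule: the 8 highest and 8 lowest called without overlap and averaging 20 or more in both main comparisons, the 6 highest and 6 lowest in the difference of enrichments, the 3 smallest p where none was called, the 6 highest and 3 lowest by FPKM, and a list of well-known members. ZSCAN9, ZKSCAN4, ZSCAN12 and ZSCAN23, from the run on chromosome 6, were chosen after their values were seen. Alternatives were a pseudocount of 5, no filter, a mean of 50 or more, FPKM with a pseudocount of 0.1, quantile normalization, centring on 82 ribosomal protein genes, voom on recovered reads, only the groups compared, a replicate block and each library left out; a fit without both TNIP2 libraries numbered 3 and a paired fit of the 6 TNIP2 libraries were added after seeing the data. Names and neighbours come from RefSeq (GRCh38.p14), where all 64 symbols were found. Replicate numbers are shared across groups. Deviations of same-numbered libraries correlated at 0.369, 0.458 and 0.497 between TNIP2 Input and TNIP2 Pulldown, and those of differently numbered ones at -0.447 to 0.274. Between Control Input and Control Pulldown the values of same-numbered libraries were 0.077, 0.074 and 0.076. The main fit and its p-values took no account of such pairing. It entered only the replicate block, the paired fit and the ratios within same-numbered pairs.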

Additional observations from a re-analysis of the deposited data

Results flagged for a closer look

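For 12 genes the Pulldown-over-Input change of the TNIP2 fragment differed from that of the tag alone, by the test of the difference itself (limma, adjusted over 14627 genes, n = 3 libraries in each of 4 groups). These were the 6 highest and the 6 lowest of the genes called. Of the 64 genes 43.8% passed this test, near the 42.8% of all genes that did. The difference (log2) was 3.10 for ZSCAN5A (adjusted p = 2.2e-04), 2.16 for ZBTB18 (4.6e-05), 1.92 for ZBTB38 (1.1e-04), 1.51 for ZBTB20 (0.026), 1.43 for ZBTB2 (0.0084) and 1.29 for ZBTB39 (0.0019). It was -1.96 for ZSCAN16 (0.0095), -1.34 for ZKSCAN8 (3.8e-04), -1.31 for ZBTB8A (1.4e-04), -1.28 for ZSCAN26 (4.3e-04), -1.27 for ZBTB9 (0.0011) and -1.06 for ZBTB24 (5.3e-04). Of these 12, ZBTB20 missed the threshold without TNIP2 Input replicate 3 (1.24), TNIP2 Pulldown replicate 2 (1.31), Control Input replicate 3 (1.38) or Control Pulldown replicate 1 (1.19), a library that held 4 of its reads. With ribosomal protein centring ZBTB20 (0.91) and ZBTB2 (0.83) were not called.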

How the results depend on the processing

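Centring on ribosomal protein genes moved the counts: 6 genes were higher in TNIP2 Pulldown over TNIP2 Input, 8 in TNIP2 Pulldown over Control Pulldown and 5 in the difference of enrichments, with 25 lower in the latter. Every other setting kept each count within 1.5 times. Leaving out 1 library gave 17 to 20 higher and 16 to 18 lower in the first comparison, where the shares of all genes were 26.9% to 31.6% and 25.2% to 29.7%. It gave 15 to 21 and 17 to 21 in the second, against 28.0% to 32.4% and 25.7% to 30.4%. In the difference it gave 9 to 14 and 10 to 15, against 19.5% to 26.2% and 17.1% to 23.3%. The other 2 comparisons stayed at 0 for the 64 genes. The replicate block gave 21 higher and 17 lower in the first comparison, 20 and 20 in the second and 13 and 15 in the difference. The shares of all genes with this block were 31.0% and 29.3%, 31.8% and 29.6%, and 24.1% and 21.5%. It changed no call of a named gene. The paired fit of the 6 TNIP2 libraries alone gave 22 higher and 19 lower in the first comparison, against 32.4% and 30.1% of all genes. Of 88 values of named genes, 59 kept direction and side of the threshold under all 23 settings and 86 kept direction. ZBTB14 turned to -0.02 in TNIP2 Pulldown over TNIP2 Input under ribosomal protein centring, and ZBTB10 turned to -0.18 under quantile normalization and -0.00 under ribosomal protein centring in TNIP2 Pulldown over Control Pulldown. Control Pulldown, with 3591174 to 6404575 reads, limits the precision of low genes.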
